A study of Caenorhabditis elegans with 2 samples.

Results

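The X chromosome summits are the 663 peak summits of an eGFP-CEH-28 chromatin immunoprecipitation (ChIP-seq) experiment that lie on the X chromosome of Caenorhabditis elegans and have a pooled signal of at least 30. They were selected on 2 values alone, the chromosome and the signal value that the authors gave each peak in the list made from both replicates pooled. They are 663 of 3447 X summits (19.2%) and of 20803 summits in all in that list, and 14.1% of the 4692 summits with a signal of at least 30. The other 4029 of these lie on the autosomes and are the comparison used throughout. Because the signal chose the summits, signal values and the thresholded status that follows from them are given as descriptions, with no test.

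The experiment covered 1 group with 2 biological replicates of strain OP241, whose genotype is given as unc-119(ed3) III; wgIs241. These are mixed-sex worms, labelled as pooled male and female and taken whole at the last larval stage (L4), with an insertion that carries ceh-28 tagged with eGFP. No untagged or mutant group enters the analysis, and the deposited lineage notes tie both replicates to the same control. Signal from whole worms averages all cells, so the cells in which a site was bound cannot be told apart.

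CEH-28 is an NK-2 class homeodomain transcription factor, known in C. elegans for its role in the M4 pharyngeal neuron. The X chromosome of hermaphrodites is regulated as a whole by the dosage compensation complex, a condensin-related machine that is loaded at recruitment sites and reduces X expression. Those recruitment sites are known to be enriched for a short word, the MEX motif, whose core is GCGCAGGG. The positions of the recruitment sites were not compared here.

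The windows below show the sequence behind the largest signals on X. They are the 8 highest X summits whose window touches no annotated UTR, followed, for each of 4 other words, by the highest summit with it that was not yet shown. Each is the 201 bases around the summit, 5′ to 3′ on the + strand of ce11 (RefSeq sequence of WBcel235), with the rank of the summit by signal among X summits and the gene with the nearest protein-coding start. Capitals mark every match, on either strand, to 6 words. These are GCGCAGGG (the MEX core), ATCGAT (a palindrome common at these summits), the GA repeat AGAGAG and the word CGTCTC. The NK-2 class site was sought as TCAAGTG and in the form TTAAGTG. The last word, GGTTCGA, is part of the internal promoter of tRNA genes. Matches on the reverse strand appear as their reverse complement, such as CCCTGCGC for GCGCAGGG, and a run of AGAGAG can hold overlapping matches.
X summit 1 (xol-1), chrX:8036328-8036528: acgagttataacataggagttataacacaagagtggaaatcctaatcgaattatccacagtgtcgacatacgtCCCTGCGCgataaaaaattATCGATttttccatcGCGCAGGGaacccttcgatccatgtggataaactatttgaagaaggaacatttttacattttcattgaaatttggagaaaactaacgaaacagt
X summit 2 (W02H3.3), chrX:11094091-11094291: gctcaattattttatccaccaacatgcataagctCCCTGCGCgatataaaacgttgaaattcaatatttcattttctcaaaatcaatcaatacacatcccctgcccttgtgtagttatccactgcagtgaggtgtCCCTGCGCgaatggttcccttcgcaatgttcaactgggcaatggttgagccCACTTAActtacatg
X summit 3 (F55G7.5), chrX:11937408-11937608: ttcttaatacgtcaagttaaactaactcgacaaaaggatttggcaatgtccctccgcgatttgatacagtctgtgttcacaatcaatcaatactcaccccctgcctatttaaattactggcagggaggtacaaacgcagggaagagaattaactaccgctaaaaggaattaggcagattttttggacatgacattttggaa
X summit 5 (F20B6.9), chrX:4209157-4209357: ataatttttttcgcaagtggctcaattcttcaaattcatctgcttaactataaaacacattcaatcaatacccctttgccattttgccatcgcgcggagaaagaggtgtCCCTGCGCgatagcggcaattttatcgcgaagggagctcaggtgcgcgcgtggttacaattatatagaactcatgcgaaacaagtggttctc
X summit 6 (ZK899.6), chrX:9465797-9465997: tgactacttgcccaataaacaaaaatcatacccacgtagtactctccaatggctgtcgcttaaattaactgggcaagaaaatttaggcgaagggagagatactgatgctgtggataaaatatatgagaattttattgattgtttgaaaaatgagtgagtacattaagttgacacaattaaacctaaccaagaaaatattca
X summit 7 (cest-16), chrX:6296434-6296634: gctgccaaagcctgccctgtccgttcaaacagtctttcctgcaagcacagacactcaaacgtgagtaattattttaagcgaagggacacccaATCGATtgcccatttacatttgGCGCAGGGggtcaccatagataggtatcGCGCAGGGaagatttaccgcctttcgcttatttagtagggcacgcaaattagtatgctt
X summit 8 (F22H10.2), chrX:16682026-16682226: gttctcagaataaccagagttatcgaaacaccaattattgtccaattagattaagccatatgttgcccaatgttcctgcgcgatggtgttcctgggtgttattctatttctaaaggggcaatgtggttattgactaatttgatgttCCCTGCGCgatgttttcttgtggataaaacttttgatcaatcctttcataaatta
X summit 9 (nspc-17), chrX:14525842-14526042: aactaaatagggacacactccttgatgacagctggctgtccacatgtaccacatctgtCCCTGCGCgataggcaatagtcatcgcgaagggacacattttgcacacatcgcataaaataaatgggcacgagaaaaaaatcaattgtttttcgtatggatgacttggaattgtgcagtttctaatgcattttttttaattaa
X summit 12 (tmem-184), chrX:14708302-14708502: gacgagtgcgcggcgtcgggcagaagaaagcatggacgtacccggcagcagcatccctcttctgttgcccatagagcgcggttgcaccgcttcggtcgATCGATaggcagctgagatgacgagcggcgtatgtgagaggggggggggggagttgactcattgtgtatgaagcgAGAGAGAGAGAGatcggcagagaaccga
X summit 13 (sli-1), chrX:727810-728010: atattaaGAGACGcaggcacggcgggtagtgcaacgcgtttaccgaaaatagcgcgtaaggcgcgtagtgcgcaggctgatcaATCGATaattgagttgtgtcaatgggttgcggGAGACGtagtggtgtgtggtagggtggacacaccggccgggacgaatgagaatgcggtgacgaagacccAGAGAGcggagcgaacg
X summit 70 (F01G12.18), chrX:16404872-16405072: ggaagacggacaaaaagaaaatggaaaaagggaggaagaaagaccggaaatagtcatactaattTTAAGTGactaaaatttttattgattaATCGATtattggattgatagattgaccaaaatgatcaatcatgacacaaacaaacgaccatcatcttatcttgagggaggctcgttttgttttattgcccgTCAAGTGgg
X summit 20 (madd-3), chrX:14297215-14297415: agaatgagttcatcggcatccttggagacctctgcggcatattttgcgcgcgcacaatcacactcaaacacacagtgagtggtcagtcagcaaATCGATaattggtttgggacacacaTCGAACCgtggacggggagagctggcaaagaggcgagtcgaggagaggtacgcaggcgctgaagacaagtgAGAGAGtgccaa

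The exact MEX core stood in 6 of the 8 highest windows shown, those of summits 1, 2, 5, 7, 8 and 9. Summits 1, 2 and 7 held 2 copies each, on opposite strands in the window of summit 1 and on the same strand in those of summits 2 and 7. Summits 3 and 6 held no exact copy, and no match to any of the other words. The window of summit 12 holds a GA run with 4 overlapping matches, and that of summit 13 holds CGTCTC in reverse complement at 2 places.

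The MEX core had the largest odds ratio between X and autosomal summits of the 6 words searched. It lay within 100 bp of 17 of 663 X summits (2.56%, 95% Wilson interval 1.61 to 4.07) and of 3 of 4029 autosomal summits (0.0745%), an odds ratio of 35.3 (Fisher's exact test, two-sided, adjusted p = 1.12e-11 over the 15 shares tested). In windows of the same length placed 1000 bp to either side, it was found in 3 of 1326 windows on X (0.226%) and 9 of 8057 on the autosomes (0.112%). Weaker summits, those with a pooled signal under 30, held it at 0.216% on X and 0.0750% on the autosomes. The word itself is not confined to X: there were 81 sites on X (4.57 per Mb) and 233 on the autosomes (2.82 per Mb). Of these sites, 21 on X (25.9%) lay within 100 bp of a chosen summit, against 3 on the autosomes (1.29%). The median distance between such an X site and the summit was 42 bp (range 6 to 82). Fisher's tests count summits as independent, which neighbouring summits are not, and intervals cover counting error only.

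The X summits with the MEX core were also among the strongest. Their median pooled signal was 183, against 42.5 for the other 646 X summits, and 14 of 17 were in the thresholded list. By signal, the core was present in 8 of 17 X summits of at least 200, in 5 of 53 between 100 and 200, in 2 of 173 between 50 and 100 and in 2 of 420 between 30 and 50. Among autosomal summits it was present in 0 of 262 of at least 200, which allows a share of up to 1.15%, and in 0 of 414 between 100 and 200, which allows up to 0.725%. The 17 summits were spread along X, with 9 in the left part of X, 4 in the middle and 4 in the right (parts of equal length). Consecutive ones lay a median of 939146 bp apart, with gaps from 207 bp to 2420442 bp. Summits 25 and 91 were the closest, so the 17 are not all separate places. Of the 17, 12 were between genes, 3 in introns, 1 in a coding exon (pks-1, a polyketide synthase gene) and 1 in a 5′ UTR (R04E5.9).

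Related words recurred in the same windows. With up to 1 mismatch, 12 of the 15 highest X summits held the MEX core. The share over all summits was 10.9% on X against 4.39% on the autosomes (Fisher's exact test, adjusted p = 1.39e-09). This form of the search was added after the data were seen, and it also counts the recurring word described next. Its test is thus not independent support. At a signal of at least 200 the share was 13 of 17 X summits (76.5%) and 4 of 262 autosomal summits (1.53%). Between 30 and 50 it was 6.67% on X and 4.45% on the autosomes. The word GCGAAGGG, which has 1 mismatch to the core, stood in 7 of the 15 highest X windows, in 7 of the other 648 (1.08%) and in 6 of 4029 autosomal windows (0.149%). It was picked because it recurs in those 15 windows, so its counts there are a description. It can be read in lower case in the windows of summits 5, 6, 7 and 9, and as its reverse complement in that of summit 2. Of the 15, summits 4, 12 and 15 had no match with up to 1 mismatch within 100 bp, and an exact core lay 114 bp from summit 4.

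The 15 highest X summits were mostly more than 1000 bp from gene starts. Of the 15, 13 were between protein-coding genes, 12 were more than 1000 bp from the nearest protein-coding start, and all 15 were thresholded. Over all 663 X summits, 62.4% were between protein-coding genes, the median distance to such a start was 1126 bp and 29.4% were thresholded. The highest, at position 8036428, lay 4885 bp upstream of xol-1, which acts early to set male or hermaphrodite fate, and within 500 bp of the tRNA gene WBGene00022939. Its signal was 849 in replicate 1 and 355 in replicate 2, and 1193 pooled. The second, 3995 bp downstream of the start of W02H3.3, had a signal of 662 in replicate 1 and 207 in replicate 2, and 865 pooled. The third, near F55G7.5, had 542 in replicate 1 and 173 in replicate 2.

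These 3 summits had higher signals than every other X summit in both replicates. The next were near F19H6.5 (384 in replicate 1 and 131 in replicate 2), near F20B6.9 (332 and 137) and near ZK899.6 (334 and 110). The seventh lay in an intron of mom-1, whose product is needed for Wnt secretion, with 285 in replicate 1 and 134 in replicate 2. Summit 8, near F22H10.2, had 288 in replicate 1 and 93.8 in replicate 2. Replicate 1 had the higher signal at each of these 8.

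Summit 9 lay 761 bp upstream of nspc-17, a gene of a nematode-specific peptide family (284 in replicate 1 and 89.3 in replicate 2). Summit 10 lay 1029 bp upstream of fbxb-58, an F-box gene (256 and 98.8). Summit 11 was in a coding exon of pks-1 (190 and 77.4). From there on the signals lay close together. Summit 12 was 1541 bp upstream of tmem-184 (194 in replicate 1 and 66.2 in replicate 2), and summit 13 was 1942 bp upstream of sli-1, which encodes a Cbl-type ubiquitin ligase (187 and 68.8). Summit 14 was 645 bp upstream of the insulin-like peptide gene ins-39 (203 and 47.3). Summit 15 was 447 bp upstream of eef-1A.2, a translation elongation factor gene (170 and 60.2). Summits 9, 14 and 15 were the 3 in a promoter window, defined as 1000 bp upstream to 500 bp downstream of a protein-coding gene start. Such windows held 43.0% of all 663 X summits. At a signal of at least 200 they held 29.4% of X summits and 25.2% of autosomal summits, so a low share was not particular to X.

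Signal alone set the other end of the range. Just inside the limit of 30 were summits near rbc-1, C11G10.1 and trpp-12, each with a pooled signal of 30.1. Just outside it were summits near snrp-40.1, acp-5 and T23F2.2, each with 29.9. The median pooled signal was 42.8 on X and 47.04 on the autosomes, and the highest was 1193 on X and 2314 on the autosomes. Of the 663 X summits, 195 (29.4%) were in the thresholded list, against 1544 of 4029 (38.3%) on the autosomes, and 8.36% of all summits of the pooled list. The lowest thresholded X signal was 56.8 and the highest below the threshold was 56.4, so the thresholded list follows the signal and nothing is read from these shares.

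**Figure D1:**
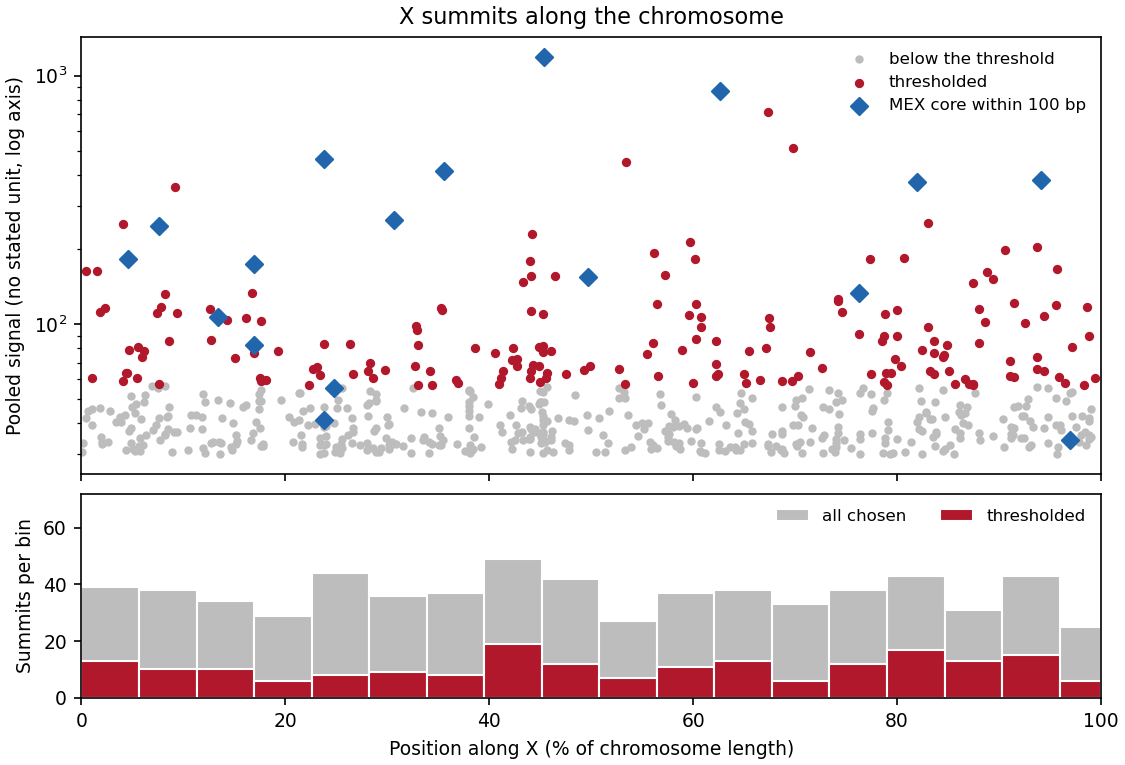
Pooled signal of the 663 X summits (upper panel, log axis) and number of summits per bin of 1 Mb (lower panel), both against position along X as a percentage of its length. Red marks thresholded summits, grey those below the threshold, and blue diamonds the 17 summits with the MEX core, 8 of which have a signal of at least 200. Bin counts in the 17 full bins run from 27 to 49.

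Along X the summits were spread nearly evenly. Cut into 3 parts of equal length, the left, middle and right parts held 218, 224 and 221 summits, of which 56, 66 and 73 were thresholded. The weaker summits of the same parts numbered 923, 965 and 896. In the 17 full bins of 1 Mb, counts ran from 27 to 49 with a median of 38, and those of weaker summits from 113 to 189. The left and right parts together, the outer parts, held 66.2% of X summits against 74.9% of autosomal summits (Fisher's exact test, adjusted p = 8.78e-06). Of weaker summits they held 65.3% on X and 62.6% on the autosomes. The difference was wider at high signal. At a signal of at least 200 the outer parts held 64.7% of X summits and 95.8% of autosomal summits, and between 30 and 50 they held 66.2% on X and 70.1% on the autosomes.

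X summits were less often close together than autosomal ones. There were 37.4 per Mb on X and 48.8 per Mb on the autosomes as a whole, which ranged from 30.5 on chromosome V to 70.5 on chromosome III, so X was not the sparsest. Another chosen summit lay within 1000 bp of 131 X summits (19.8%) and of 1127 autosomal summits (27.97%; Fisher's exact test, adjusted p = 1.11e-05). Only chosen summits count as neighbours, and a close pair counts at each of its summits, so this test is not independent of the signal limit. Weaker summits, counted among themselves, had 32.97% on X and 32.97% on the autosomes. From the lowest band of signal (30 to 50) through 50 to 100 and 100 to 200 to the highest (200 or more), the X shares were 17.9%, 21.4%, 32.1% and 11.8%. On the autosomes they were 18.98%, 30.9%, 44.7% and 63.4%. The highest X share is 2 of 17 summits and is imprecise. A lower density alone leaves fewer neighbours, and its part in the difference was not tested. By start and end, the 663 X summits had 663 distinct regions, while the 4029 autosomal summits had 3938. Distinct regions can still overlap, as those of X summits 17 and 132 do. With 1 summit per region, another chosen summit lay within 1000 bp of 19.8% of X summits and 24.9% of autosomal summits. That difference was smaller and still passed (Fisher's exact test, adjusted p = 0.00601). The median gap between consecutive X summits was 14338.5 bp, and between thresholded ones 56945 bp. Gaps ran from 199 bp to 201099 bp, the largest from position 3211131 to 3412230, which ends at the summit upstream of unc-78. Joined at 1000 bp, the 663 summits formed 593 clusters, of which 532 were single summits, 52 pairs and 9 groups of 3.

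The densest stretches were not the strongest. The stretch of at most 20 kb with the most summits ran from position 8015836 to 8032717 and held 11, of which 3 were thresholded, with signals of 30.3 to 110 over C34D10.1, unk-1 and C34D10.5. It ended 3711 bp from the highest X summit. The next ran from 6736461 to 6750439, between genes and in introns of mdl-1, which encodes a Mad-like transcription factor, and abts-4, an anion transporter gene. It held 10 summits, none thresholded, the highest with a signal of 54.1. The third, from 7774213 to 7793886, held 8 summits, of which 2 were thresholded, around the channel gene deg-1 and mec-7, a tubulin gene of touch neurons. Its highest signal was 180.

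Gene context also set X apart. Between protein-coding genes lay 414 X summits (62.4%, interval 58.7 to 66.0) and 1521 autosomal summits (37.8%), an odds ratio of 2.74 (Fisher's exact test, adjusted p = 1.35e-31). Such sequence makes up 44.5% of X and 35.8% of the autosomes, and held 44.8% of weaker summits on X and 35.5% on the autosomes. The X share was thus above both of its own backgrounds, while the autosomal share lay near its own. Introns held 24.7% of X summits and 37.9% of autosomal summits (Fisher's exact test, adjusted p = 1.02e-10), with 30.7% of X and 33.8% of autosomal bases. Coding exons held 5.88% of X summits and 13.03% of autosomal summits (Fisher's exact test, adjusted p = 4.94e-08), with 19.97% of X and 25.6% of autosomal bases. The coding exon shares were 9.14% on X and 14.9% on the autosomes when the 4692 highest summits of replicate 2 alone were taken (adjusted p = 5.39e-05, Fisher's exact test). At a signal of at least 50 they were 2.47% on X and 8.87% on the autosomes.

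**Figure D2:**
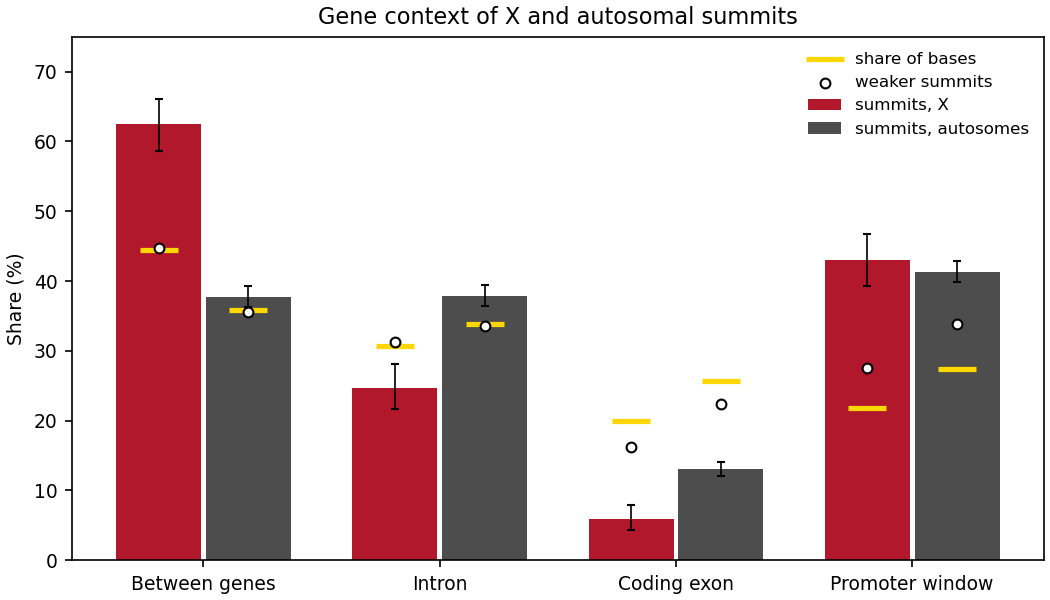
Share of summits in each gene context, in percent, for 663 X summits (red) and 4029 autosomal summits (dark grey), with 95% Wilson intervals. Gold lines are the share of chromosome bases in that context and open circles the share of weaker summits. Between genes the X bar (62.4%) stands above its gold line (44.5%), while the autosomal bar (37.8%) is near its own (35.8%).

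The contrast grew with signal. From the lowest band (30 to 50) to the highest (200 or more), the share between genes was 56.9%, 68.2%, 79.2% and 88.2% on X, and 39.9%, 40.4%, 30.2% and 19.5% on the autosomes. In introns the same bands held 27.4%, 22.5%, 16.98% and 5.88% on X, and 32.1%, 36.9%, 55.8% and 61.5% on the autosomes. The highest X band has 17 summits, so its shares are imprecise. Promoter windows held 43.0% of X summits and 41.4% of autosomal summits, a difference that did not pass (Fisher's exact test, adjusted p = 0.476). They cover 21.9% of X and 27.4% of the autosomes, and held 27.5% of weaker X summits and 33.8% of weaker autosomal summits. At a signal of at least 50 the shares were 52.7% on X and 38.5% on the autosomes (Fisher's exact test, adjusted p = 5.33e-05), and in the thresholded list 51.3% on X and 36.3% on the autosomes (adjusted p = 1.15e-04), so the call for promoter windows depends on the signal limit. The median distance to the nearest protein-coding start was 1126 bp on X and 1082 bp on the autosomes.

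ATCGAT had the highest share of the 6 words on X and on the autosomes, and a lower one on X. The word was taken from earlier results of these same data, so its tests are not independent support. It lay within 100 bp of 247 X summits (37.3%) and 2522 autosomal summits (62.6%), an odds ratio of 0.355 (Fisher's exact test, adjusted p = 5.56e-33). Side windows held it at 5.35% on X and 13.7% on the autosomes, and weaker summits at 13.2% on X and 23.8% on the autosomes. Chosen by replicate 2 alone, summits held it at 24.7% on X and 49.1% on the autosomes (Fisher's exact test, adjusted p = 3.48e-33). The X chromosome has 215 sites per Mb and the autosomes 410, so fewer sites and fewer summits with a site go together on X, and the part of the one in the other was not tested. On the autosomes the share rose with signal, with 51.1%, 69.3%, 85.7% and 91.6% from the lowest band to the highest. On X the bands had 32.4%, 46.2%, 47.2% and 35.3%.

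Windows with many ATCGAT sites were rare on X. Of the X summits, 416 had no site, 226 had 1, 16 had 2, 3 had 3 and 2 had 4 or more (0.302%). On the autosomes, 219 summits had 4 or more (5.44%). The median signal on X was 40.9 with no site, 46.6 with 1, 54.3 with 2, 65.1 with 3 and 104.3 with 4 or more. On the autosomes it was 40.1 with no site, 45.8 with 1, 60.7 with 2, 116 with 3 and 193 with 4 or more. Within X, the left part had the site at 44.0% of its summits, the middle at 33.0% and the right at 34.8%.

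Both AGAGAG and CGTCTC were more common on X. The 2 words were taken from earlier results of these same data, so their tests are not independent support. The first lay within 100 bp of 203 X summits (30.6%) and 793 autosomal summits (19.7%; adjusted p = 2.15e-09, Fisher's exact test), with 9.65% of X and 8.33% of autosomal side windows. The second lay within 100 bp of 138 X summits (20.8%) and 572 autosomal summits (14.2%; Fisher's exact test, adjusted p = 3.56e-05), with 5.20% of X and 5.97% of autosomal side windows. Genome-wide, AGAGAG had 657 sites per Mb on X and 647 on the autosomes, and CGTCTC 255 on X and 304 on the autosomes. Weaker summits held AGAGAG at 12.4% on X and 12.97% on the autosomes, and CGTCTC at 7.22% on X and 8.33% on the autosomes. Among X summits 36.2% of those between genes held AGAGAG and 25.8% CGTCTC, against 19.5% and 11.6% of those in introns. Among summits between genes CGTCTC had 25.8% on X and 21.8% on the autosomes, which did not pass (Fisher's exact test, adjusted p = 0.143, an alternative added after the data were seen). The 54 X summits with both words had a median signal of 56.7, and 36 of them were in a promoter window.

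The NK-2 class site was found at few of the summits. Either form, TCAAGTG or TTAAGTG, lay within 100 bp of 23 X summits (3.47%) and 139 autosomal summits (3.45%; adjusted p = 1, Fisher's exact test). The side windows had 4.37% on X and 3.70% on the autosomes, and the weaker summits 5.24% on X and 4.34% on the autosomes. With the 4692 highest summits of replicate 2 alone the shares were 5% on X and 3.26% on the autosomes (Fisher's exact test, adjusted p = 0.0360), and with those of replicate 1 alone 2.80% on X and 3.29% on the autosomes. The MEX core, the palindrome, the GA repeat and CGTCTC were all missing from 209 X windows (31.5%) and from 876 autosomal windows (21.7%). The windows were also richer in G and C on X, with a median GC content of 41.3% against 36.3% on the autosomes, while whole chromosomes had 35.2% on X and 35.5% on the autosomes. Its part in the shares of the words was not tested.

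**Figure D3:**
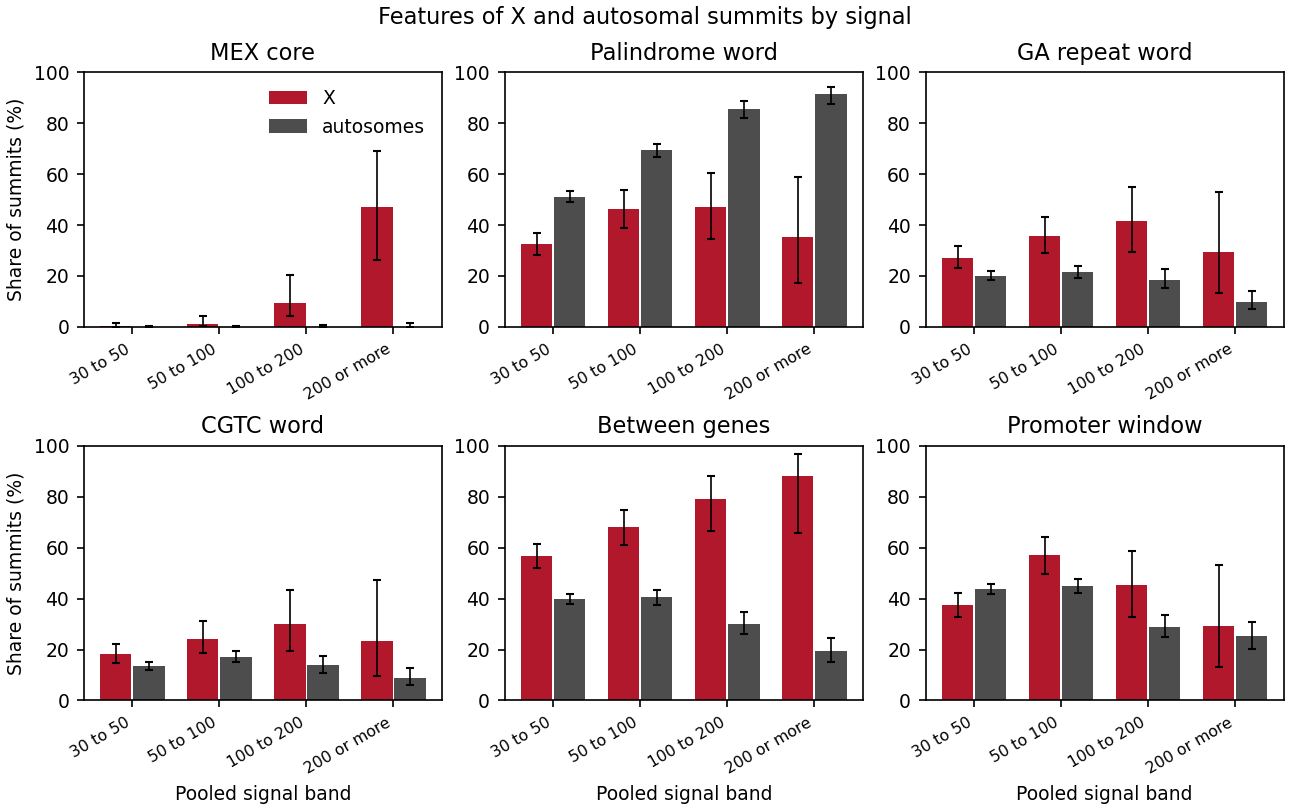
Share of summits, in percent, with a word within 100 bp or in a gene context, by band of pooled signal, for X (red) and the autosomes (dark grey), with 95% Wilson intervals. MEX core is GCGCAGGG, palindrome word ATCGAT, GA repeat word AGAGAG and CGTC word CGTCTC. The MEX core reaches 8 of 17 X summits in the highest band, and the share between genes goes up with signal on X and down on the autosomes.

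X carries many tRNA genes, and summits lay near them more often than on the autosomes. A tRNA gene was within 500 bp of 27 X summits (4.07%) and 26 autosomal summits (0.645%), an odds ratio of 6.54 (Fisher's exact test, adjusted p = 5.34e-10). X has 276 tRNA genes and the autosomes 336, and the bases within 500 bp of one are 1.38% of X and 0.398% of the autosomes. The part of gene number in the difference was not tested. Weaker summits had 2.33% on X and 0.848% on the autosomes. Chosen by the signal of replicate 2 alone, the shares were 2.71% on X and 0.576% on the autosomes (Fisher's exact test, adjusted p = 5.54e-06), and at a signal of at least 50 they were 2.47% on X and 0.487% on the autosomes (adjusted p = 0.00637). In all, 34 of the 276 X tRNA genes (12.3%) had a chosen summit within 500 bp, 7 of them a thresholded one. Of all 3291 X genes that are not protein-coding, 7.14% had a chosen summit within 500 bp and 2.04% a thresholded one. After WBGene00022939 beside the highest X summit, the next were WBGene00023213 with 143 in replicate 1 and 38.9 in replicate 2, and WBGene00023117 with 84.8 and 34.4. GGTTCGA lay within 100 bp of 22 X summits (3.32%) and 45 autosomal summits (1.12%; Fisher's exact test, adjusted p = 1.46e-04), with 1.81% of X and 1.44% of autosomal side windows. This call was lost in the thresholded list (adjusted p = 0.114), with windows of 50 bp to each side (adjusted p = 0.0891) and with the 4692 highest summits of replicate 2 alone, where the X share was 1.57% (Fisher's exact test, adjusted p = 0.269). Of the 27 summits near a tRNA gene, 9 held it.

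For other small RNA genes X summits were near the share of bases. A snoRNA or miRNA gene was within 500 bp of 4 X summits (0.603%) and 61 autosomal summits (1.51%), which did not pass (adjusted p = 0.0891, Fisher's exact test). The bases within 500 bp of one are 0.572% of X and 0.632% of the autosomes. Of 74 X miRNA genes, 7 (9.46%) had a summit within 500 bp, beside the 7.14% of all X genes that are not protein-coding. The neighbouring genes cel-mir-54, cel-mir-55 and cel-mir-55b shared a summit with a signal of 98.5 in replicate 1 and 29.9 in replicate 2. cel-mir-271 shared the summit upstream of unc-78. None of 33 X snoRNA genes had one, which allows a share of up to 9.09%.

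Of 2731 protein-coding genes on X, 289 (10.6%) had a chosen summit in the promoter window and 106 (3.88%) a thresholded one. These shares are the background for each gene list. Of the 3 X genes listed for sex determination and dosage compensation, 2 had a summit. sdc-2, whose product directs the dosage compensation complex to X, had one 413 bp upstream of its start with a signal of 50.6 in replicate 1 and 16.8 in replicate 2. sdc-1, which acts with it, had one 553 bp upstream, with 40.7 in replicate 1 and no summit within 100 bp in replicate 2. xol-1 had none in its promoter window, since the highest X summit lies farther upstream. Neither the sdc-2 summit nor the sdc-1 summit held the MEX core. Among the X signal elements, ceh-39, fox-1 and sex-1 had none, and 0 of 3 allows a share of up to 100%.

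Homeobox genes on X had no chosen summit in the promoter window, 0 of 26, which allows a share of up to 11.5%, above the 10.6% of all X genes. Cuticle collagen genes also had 0 of 29, which allows up to 10.3%. Every limit given here for a count of 0 is 3 divided by the number of genes or summits. That is a rough bound, so no shortfall below 10.6% is read from it. Of 27 nuclear hormone receptor genes, 4 had one. nhr-48 had 86.1 in replicate 1 and no summit within 100 bp in replicate 2, and nhr-1 had 62.5 and 28.8, both thresholded. nhr-3 had 30.9 in replicate 1 and 13.8 in replicate 2, and nhr-137 had 19.7 and 9.92, neither thresholded.

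Of 5 genes of the synaptic vesicle and active zone, 2 had a summit, both thresholded. unc-18, a Munc18 homologue needed for vesicle fusion, had one 345 bp upstream of its start with 101 in replicate 1 and 47.8 in replicate 2. syd-2, which encodes liprin-alpha of the active zone, had one 395 bp upstream with 71.8 in replicate 1 and 36.5 in replicate 2. Of 28 ion channel and innexin genes, 2 had one: the chloride channel gene clh-4 (54.99 in replicate 1 and 11.6 in replicate 2) and the potassium channel gene irk-2 (38.9 and 19.7). Of 13 muscle genes, 2 had one: unc-78, which encodes an actin-interacting protein (49.1 and 23.6), and unc-97, which encodes a LIM-domain protein of muscle attachments (15.9 and 13.8). Of 37 neuropeptide genes only ins-39 had one. None of the lists was tested against the background of 10.6%.

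The ceh-28 gene itself lies on X at 13074673 to 13076092. No chosen summit was within 20 kb of its start, where 3 weaker summits lay. The nearest chosen one was 28210 bp away, near C53C7.3, with a pooled signal of 31.4.

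By summits within 100 bp, replicate 1 held most of the X summits and replicate 2 fewer. A summit of replicate 1 lay within 100 bp of 637 X summits (96.1%) and one of replicate 2 of 534 (80.5%). Both replicates had one at 514 X summits (77.5%) and 3228 autosomal summits (80.1%), which did not pass (Fisher's exact test, adjusted p = 0.150). The pooled signal that chose the summits was made from both replicates, and this share rose with it. Between 30 and 50 it was 71.2% on X and 70.8% on the autosomes, and at 200 or more 100% and 96.9%. Nothing about agreement of the replicates on X is therefore read from that test. With any overlapping replicate region instead, both replicates had one at 629 of 663 X summits and 3787 of 4029 autosomal summits. A summit without a match within 100 bp thus often had an overlapping replicate region whose summit lay farther away. This form was not tested. Signals in replicate 1 ran from 8.97 to 849 with a median of 32.4, and in replicate 2 from 4.84 to 355 with a median of 13.7. Replicate 1 had the higher signal at all but 23 of the 514 X summits. The median ratio of replicate 1 to replicate 2 was 2.58 on X (quartiles 1.86 to 3.50) and 2.60 on the autosomes.

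Across the 514 X summits with both signals, Spearman's rho between the replicates was 0.479, and across 3228 autosomal summits it was 0.607. It was 0.670 over the 179 thresholded X summits and -0.215 over the 335 below the threshold. These are descriptions across peaks of the same 2 libraries, and the pooled signal that chose the summits was made from both, which narrows the range within each class. Below the threshold the pooled signal spans only 30 to 56.4, so the choice itself can set the 2 signals in opposite directions. Nothing about agreement of the replicates is read from the sign of that rho. Among the 4692 summits of highest signal in each replicate were 81.3% of X and 85.1% of autosomal summits for replicate 1, and 54.6% of X and 58.8% of autosomal summits for replicate 2. Of the 17 X summits with the MEX core, 16 had a matched summit in both replicates, with medians of 138 in replicate 1 and 59.6 in replicate 2.

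**Figure D4:**
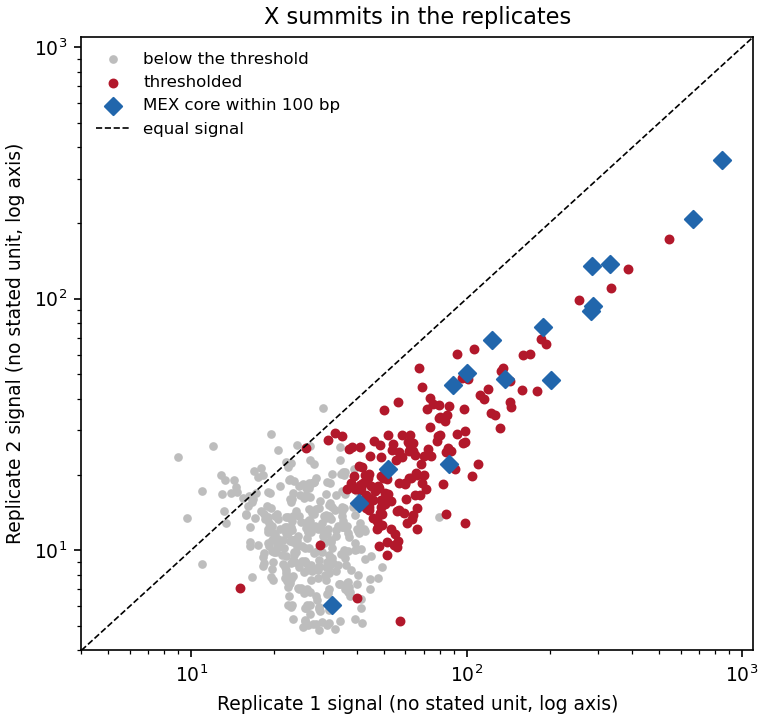
Signal in replicate 1 against replicate 2 (both log axes) for the 514 X summits matched within 100 bp in both. Red marks thresholded summits, grey those below the threshold, and blue diamonds the 16 with the MEX core. The dashed line is equal signal, and all but 23 summits lie on the side of replicate 1.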

How the data were processed

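Peaks were deposited by the authors, per the deposited file notes, as relaxed lists for each replicate and for both pooled, with a further list kept at an irreproducible discovery rate threshold (the thresholded list), on ce10 and ce11. The aligner, like the peak caller, was not given in sources used here. Each peak has a signal value from the authors, with no stated scale; −log10 q values were deposited too and not used to rank. The depth is unknown. The 2 replicates are separate biosamples of 1 group.

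A summit is the region's start plus its deposited offset. Genes came from Ensembl release 115 and the sequence from RefSeq WBcel235. Words were counted on both strands in 201 bp around each summit. Replicate summits were matched within 100 bp. Shares on X and the autosomes were compared by two-sided Fisher's exact tests, adjusted over 15 shares by the Benjamini-Hochberg method, in scipy 1.17.1 with Python 3.11.15, checked on simulated data.

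The summits, words, gene lists and tests were chosen with earlier results of these data known; 3 of the words, AGAGAG and CGTCTC as well as the palindrome ATCGAT, were taken from those results. Summits named singly are the 15 highest on X, 3 either side of the limit, up to 4 members of each gene list with a summit in the promoter window and the 3 densest clusters. Recurring words of 8 letters were picked after seeing the 15 highest windows. Alternatives were a limit of 50, the thresholded list, windows of 50 bp to each side, 1 summit per region, each replicate alone and the ce10 count.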

Additional observations from a re-analysis of the deposited data

How the results depend on the processing

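Of 92 alternatives, for the 15 shares and for the number, replicate signals and spacing of X summits, 81 kept the direction and the side of the threshold, 4 reversed, 4 no longer passed and 3 passed where the reported share did not. The higher X shares for GCGCAGGG, AGAGAG, tRNA genes and sequence between genes, and the lower ones for ATCGAT, introns and coding exons, kept both in every alternative run. The NK-2 class site, whose shares were almost equal, reversed with smaller windows (1.51% on X against 1.79% on the autosomes), with 1 summit per region (3.47% against 3.50%), between genes only (2.42% against 3.88%) and without replicate 2. Leaving out 1 replicate gave 2.80% to 5% on X, and it passed without replicate 1 (5% against 3.26%, Fisher's exact test, adjusted p = 0.0360). GGTTCGA no longer passed Fisher's exact test with smaller windows (1.21%, adjusted p = 0.0891), in the thresholded list (2.56%, adjusted p = 0.114) or without replicate 1 (1.57%, adjusted p = 0.269), with 1.57% to 3.42% when 1 replicate was left out. CGTCTC no longer passed between genes only (25.8%). Promoter windows passed at a signal of at least 50 (52.7%) and in the thresholded list (51.3%). The causes were not tested. Smaller windows were run for the 6 words and the promoter window alone. On ce10 the same limit gave 670 X summits. Taking 1 summit per region kept all 663 X summits, so only the autosomal side of those comparisons could change. For the number and spacing of X summits that alternative could not differ, and its agreement shows nothing. No paired analysis was possible because there is only 1 group. The unknown depth limits what a missing replicate match shows.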
